A study of Mus musculus with 10 samples.

Results

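Collagens are the triple-helical proteins that give most extracellular matrices their strength, and 42 collagen genes were followed across a mouse model of ischaemic retinopathy. They are the symbols of the form Col, number, a, number in the array's annotation, each represented by 1 transcript cluster (the probe set that summarises a gene) with a single symbol, among 30063 genes so represented. The annotation holds 44 such symbols. Col6a4 and Col7a1 share their cluster with a further symbol and are not analysed here. By class the genes comprised 11 fibrillar collagens, 6 basement membrane collagens of type IV, and 25 others. All 42 passed the filter on dim signal and entered the test over 23255 genes.

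Total RNA of C57BL/6JJmsSlc retina was hybridised to 10 arrays, in 5 groups of 2. They hold retina at postnatal day 17 with oxygen-induced retinopathy (OIR) after injection of the inhibitor ISOX DUAL, OIR with injection of phosphate-buffered saline (PBS), uninjected OIR, untreated retina at day 17, and untreated retina at day 7. All OIR pups had spent 5 days in 75% oxygen from day 7 and then breathed air, and injections went into the vitreous at the end of hyperoxia. ISOX DUAL is known as a bromodomain inhibitor. No genotype other than the strain is given, and the labels do not state the dose, the sex, or whether an array holds 1 animal or a pool. The p-values therefore rest on array-to-array spread that could be technical alone.

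In collagens, 3 chains wind into a helix whose repeating glycine residues pack at its centre. Fibrillar collagens assemble into cables, type IV collagen forms the sheet-like network under vessel endothelium and at the inner surface of the retina, and fibril-associated collagens with interrupted helices (FACIT) coat the fibrils. In the eye, types II, IX and XI build the vitreous gel, and growing retinal vessels lay down type IV collagen together with laminins and nidogens. Retinopathy of this kind is studied for its sprouting vessels, and the series looked for genes raised in OIR that return towards the untreated level with the inhibitor.

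The levels of most collagen genes were low. Of the 42, 24 exceeded the median of the array's negative control probes on all 10 arrays, 12 did so on some arrays, and 6 on none, namely Col4a6, Col6a5, Col10a1, Col14a1, Col19a1 and Col28a1. Of the fibrillar genes 8 of 11 exceeded it on all arrays, of the type IV genes 3 of 6, and of the others 13 of 25. The values are log2 values as deposited, and the negative control medians were 5.83 to 6.11 log2. For a gene below that median in the lower group a log2 difference is not an exact size, and no fold is given. Across the 5 groups the group means of a collagen gene spanned a median of 0.17 log2, against 0.30 log2 over all genes tested. The span exceeded 0.5 log2 for 5 genes: Col9a1 (1.08), Col12a1 (1.05), Col4a1 (0.82), Col4a2 (0.71) and Col2a1 (0.56). It was under 0.25 log2 for 27.

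The 2 arrays of an uninjected group differed in a direction that most collagen genes shared. The second array had the higher value for 39 of 42 collagen genes in uninjected OIR (median 0.14 log2 above the first), for 37 in untreated day 17 retina (0.13 log2) and for 41 in untreated day 7 retina (0.28 log2). Over all genes tested the second array was the higher one for 53.6%, 56.0% and 58.5% of genes in those groups. In the injected groups the count was 20 of 42 with ISOX DUAL (median -0.003 log2) and 30 of 42 with PBS (0.06 log2), against 49.4% and 61.6% of all genes. The largest gaps between both arrays of a group were 0.70 log2 for Col9a1 in untreated day 17 retina, 0.60 log2 for Col2a1 in untreated day 7 retina and 0.58 log2 for Col4a1 in uninjected OIR. As a check of the tissue label, 7 of 7 neural retina genes lay above the negative control median on at least 1 array. Their mean was 10.51 to 10.70 log2 on the day 17 arrays and 9.78 and 9.25 log2 on the day 7 arrays.

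**Figure D1:**
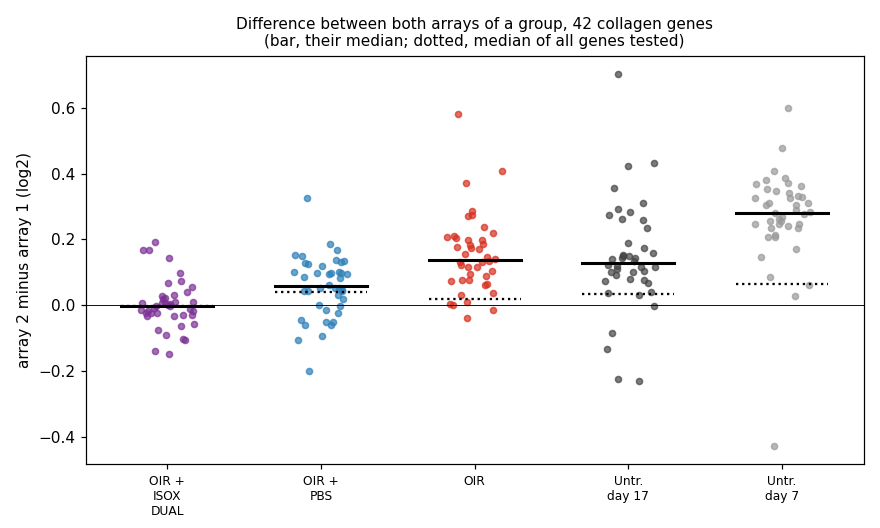
Second array minus first array (log2, vertical axis) for the 42 collagen genes in each of the 5 groups, each point a gene. Solid bars mark the collagen median, which is 0.28 in untreated day 7 retina and -0.003 with ISOX DUAL, and dotted lines mark the median of all genes tested.

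Uninjected OIR was set against untreated day 17 retina to ask which collagens differ with retinopathy. The genes with the smallest p were those of the main type IV collagen network, Col4a1 and Col4a2, which encode the chains found in nearly all basement membranes, vessels included. Col4a1 was at 7.23 and 7.81 log2 in uninjected OIR, against 6.67 and 6.94 log2 in untreated day 17 retina. Both OIR arrays lay above both untreated arrays, and the higher OIR array stood clear of the rest. The difference was 0.72 ± 0.21 log2 (standard error, SE; 1.64-fold; 95% interval 0.24 to 1.20), and it did not pass the limma threshold (adjusted p = 0.404). Col4a2 was at 7.19 and 7.60 log2 in uninjected OIR, against 6.57 and 7.00 log2 in untreated retina. Its groups did not overlap either, and the difference of 0.61 ± 0.20 log2 (1.53-fold, 0.15 to 1.07) did not pass (adjusted p = 0.539). Leaving out 1 array moved the Col4a1 difference to 0.43 log2 without the second OIR array and to 1.01 log2 without the first. For Col4a2 it was 0.41 and 0.81 log2 in these cases, and 0.39 log2 without the first untreated array.

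Col4a1 and Col4a2 lie head to head in the mouse genome and share a promoter region. In the RefSeq promoter table (GRCm38.p6) Col4a1 starts at position 11312826 of chromosome 8 on the minus strand and Col4a2 at position 11312805 on the plus strand, so that the first 22 bases of both transcripts overlap. A short stretch of this region is shown because these neighbours had the smallest p of the collagens in OIR. The capitals mark a CCAAT word read on the opposite strand, which begins 145 bases before the Col4a1 start (chr8:11312954-11312983, minus strand, written 5′ to 3′).
Col4a1: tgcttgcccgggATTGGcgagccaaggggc
The Col4a2 window holds CCAAT 32 bases before its start. Promoter windows of 250 bases before the start were found for 33 of the 42 collagen genes (36 windows). Both strands were searched for the CCAAT box, the GC box word GGGCGG, the TATA box word TATAAA and, as cores of the hypoxia response element, the words ACGTG and also GCGTG. Of the 36 collagen windows 11 held CCAAT, against 33.8% of all 32851 windows. GGGCGG occurred in 20 of them, against 32.7% of all, and the collagen windows had a median GC content of 59.4% against 52.4%. TATAAA occurred in 5 (12.4% of all), ACGTG in 5 (16.6%) and GCGTG in 8 (28.2%). GCGTG occurred once before Col4a1, 171 bases from the start, and once before Col4a2, 105 bases from it. These words did not overlap with one another in either window, and a match is a description of letters and not a binding site.

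The other type IV chains stayed close to the untreated level. Col4a3 and Col4a4, whose chains join that of Col4a5 in the basement membranes of kidney and lens, differed by -0.06 and -0.06 log2 between uninjected OIR and untreated day 17 retina. Col4a5 differed by 0.04 log2 and Col4a6 by -0.03 log2. The median of the 6 type IV genes was 0.01 log2, against -0.04 log2 over all genes tested. The 2 collagens with long interrupted helices that sit in the basement membrane zone (multiplexins) differed little. Col18a1, the source of the fragment endostatin, was at 6.95 and 7.15 log2 in uninjected OIR, against 6.67 and 6.98 log2 in untreated retina, so that the groups overlapped (0.22 ± 0.18 log2). Col15a1 was at 6.07 and 6.13 log2, against 6.06 and 6.06 log2 (0.04 ± 0.10 log2).

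**Figure D2:**
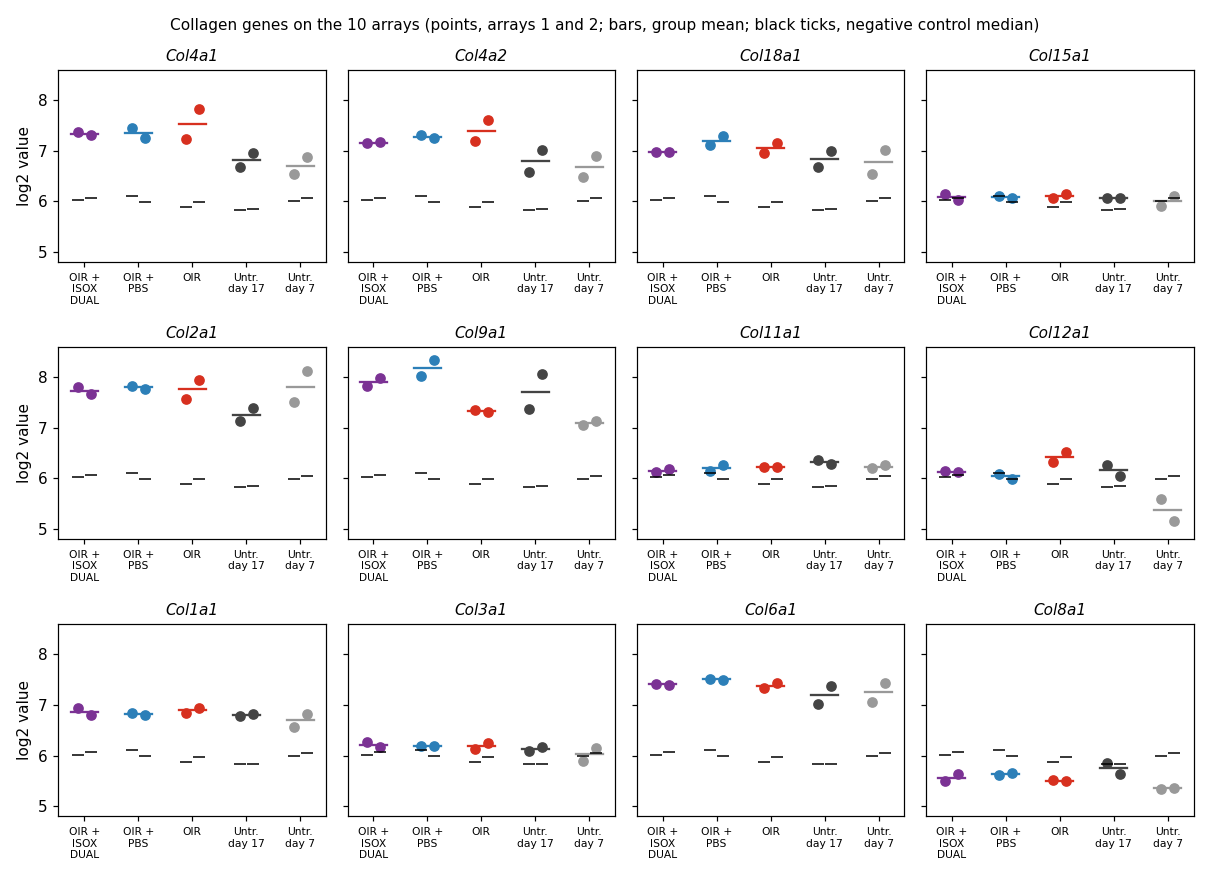
Log2 values (vertical axis) of 12 collagen genes on the 10 arrays, with 2 points and a bar at the mean for each of the 5 groups, and black ticks at each array's negative control median. In uninjected OIR both Col4a1 points (7.23 and 7.81) lie above both untreated day 17 points (6.67 and 6.94), while Col15a1 and Col3a1 stay near the ticks.

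Markers of vessel cells and of other retinal cells were followed in the same groups. Each of 8 endothelial markers was above the negative control median on at least 1 array. Erg was so only in uninjected OIR (6.19 and 6.11 log2), with 5.81 and 5.73 log2 in untreated day 17 retina. The mean of the 8 was 7.36 and 7.32 log2 in uninjected OIR, against 7.15 and 7.08 log2 in untreated day 17 retina. Of these 8, 7 had a positive difference, and Tek was at 5.99 and 5.84 log2 in uninjected OIR, against 6.45 and 6.17 log2. Of 8 pericyte and smooth muscle markers only Myh11 lay below the negative control median on all arrays, and their mean was 7.44 and 7.22 log2, against 6.77 and 6.71 log2. All 8 of this list had a positive difference, as had 40.0% of all genes. By limma 0 markers of either list were called, where 0.495% of all genes tested were. The arrays of both groups overlapped for Myh11, Kcnj8 and Cspg4. Kcnj8 was at 6.06 and 5.80 log2 in uninjected OIR, against 5.85 and 5.89 log2 in untreated day 17 retina. Acta2 was at 9.05 and 7.75 log2, against 6.85 and 6.43 log2, and Tagln at 6.82 and 6.20 log2, against 6.02 and 5.79 log2. For the 4 genes listed as astrocyte markers, whether astrocytes or Müller glia hold the transcripts was not tested. The 4 genes averaged 6.95 and 6.98 log2, against 6.42 and 6.57 log2, but their median difference was 0.07 log2 and 2 of 4 were positive. Among them Gfap rose (2.39 ± 0.18 log2, adjusted p = 0.00526), while Aqp4 was at 7.04 and 6.92 log2 in uninjected OIR, against 7.59 and 7.68 log2, and Pax2 at 5.86 and 5.86 log2, against 5.92 and 5.87 log2. The 3 Müller glia markers averaged 8.75 and 8.54 log2, against 8.69 and 9.03 log2, and the 4 microglia markers 6.41 and 6.21 log2, against 6.14 and 6.24 log2. Markers of the retinal pigment epithelium, whose basement membrane is part of Bruch's membrane, averaged 6.56 and 6.00 log2, against 6.94 and 6.44 log2, with Best1 and Mlana below the negative control median on all arrays. The part of these cells in the type IV collagen difference was not tested, and in whole retina more cells of a type and more RNA per cell cannot be told apart.

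Among fibrillar collagens Col2a1, the main collagen of vitreous and cartilage, had the largest difference. It was at 7.57 and 7.95 log2 in uninjected OIR, against 7.13 and 7.39 log2 in untreated day 17 retina. The groups did not overlap, and the difference of 0.50 ± 0.21 log2 (1.42-fold, 95% interval 0.02 to 0.99) did not pass (adjusted p = 0.785). It was 0.32 log2 without the second OIR array. Col11a1, whose chain lies inside type II fibrils, was at 6.23 and 6.23 log2 in uninjected OIR, against 6.37 and 6.29 log2, a difference of -0.10 ± 0.09 log2. The collagens of scar and connective tissue showed little difference. Col1a1 was at 6.84 and 6.94 log2, against 6.79 and 6.83 log2 (0.08 ± 0.11 log2), and Col1a2 at 6.35 and 6.35 log2, against 6.39 and 6.42 log2 (-0.05 ± 0.09 log2). Col3a1, which accompanies type I collagen in vessel walls, was at 6.14 and 6.25 log2, against 6.10 and 6.18 log2 (0.06 ± 0.11 log2). The median over the 11 fibrillar genes was 0.04 log2, and 10 of the 11 lay within 0.25 log2 of 0. Of the fibroblast and scleral markers, 7 had a cluster, of which Dcn, Lum, Kera and Aspn lay below the negative control medians on all 10 arrays. The mean of the 7 was 5.18 and 4.54 log2 in uninjected OIR, against 4.85 and 4.39 log2 in untreated day 17 retina. The 4 of them that were tested all had a positive difference (median 0.64 log2), and 0 were called, where 0.495% of all genes tested were. Aspn, 1 of the 4, was at 5.87 and 4.45 log2 in uninjected OIR, against 4.90 and 4.19 log2. Dcn, Lum and Kera were too dim to be tested and did not rise. Dcn was at 3.33 and 3.43 log2, against 3.76 and 3.47 log2. Lum was at 3.55 and 3.57 log2, against 3.65 and 3.57 log2, and Kera at 2.36 and 2.25 log2, against 2.58 and 2.42 log2. In the same groups Fbln1 was at 8.05 and 6.99 log2, against 7.04 and 6.65 log2. Postn was at 6.31 and 5.71 log2, against 5.42 and 4.84 log2, and Ogn at 6.81 and 5.39 log2, against 6.57 and 5.61 log2.

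Over all 42 collagen genes, 0 passed the adjusted limma threshold of 0.05 between uninjected OIR and untreated day 17 retina, where 0.495% of all genes tested were called. At an unadjusted p under 0.05 there were 3 (Col4a1, Col4a2 and Col2a1), which is 7.14% of the collagen genes, against 6.1% of all genes. The arrays of both groups did not overlap for 9 collagen genes with higher values in OIR (9.44% of all genes) and for 5 with lower values (19% of all genes). The median difference of the collagen genes was -0.01 log2, with 20 positive and 22 negative. Lower values of smallest p were those of Col8a1 (-0.24 ± 0.10 log2, adjusted p = 0.821), which encodes a short-chain collagen of endothelial matrices and lay near or below the negative control medians, and of Col9a1. The 25 collagens of neither class had a median of -0.03 log2, and 23 of them lay within 0.25 log2 of 0.

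**Figure D3:**
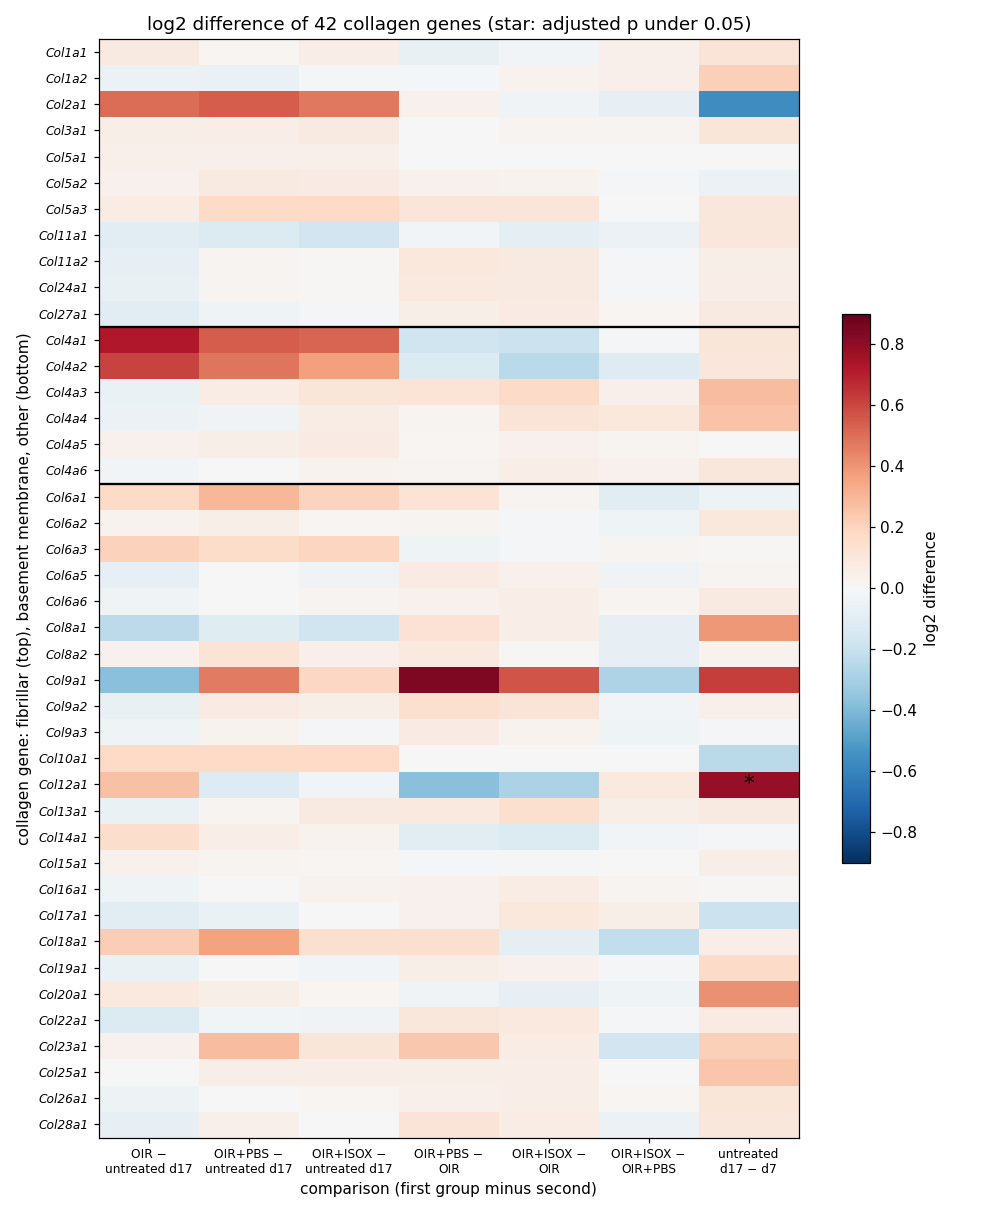
Log2 difference of each of the 42 collagen genes (rows, by class) in 7 comparisons (columns, first group minus second), red for higher and blue for lower. Col4a1, Col4a2 and Col2a1 are red in the 3 columns against untreated day 17 retina, and the only star, for an adjusted p under 0.05, is that of Col12a1 between day 17 and day 7.

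Col9a1 encodes a chain of type IX collagen, a FACIT that coats the type II fibrils of vitreous and cartilage, and it showed the widest span of group means. It was at 7.82 and 7.99 log2 with ISOX DUAL, at 8.02 and 8.34 log2 with PBS, at 7.36 and 7.32 log2 in uninjected OIR, at 7.36 and 8.07 log2 in untreated day 17 retina, and at 7.05 and 7.14 log2 in untreated day 7 retina. All 4 injected arrays lay above both uninjected OIR arrays, and the untreated day 17 arrays spread over most of that range. With ISOX DUAL the difference from uninjected OIR was 0.56 ± 0.22 log2 (1.48-fold, 95% interval 0.06 to 1.06, adjusted p = 0.991), and with PBS it was 0.84 ± 0.22 log2 (1.79-fold, 0.34 to 1.34, adjusted p = 0.707). Neither passed, and both comparisons share the uninjected OIR arrays. Uninjected OIR differed from untreated day 17 retina by -0.38 ± 0.22 log2 (adjusted p = 0.999). Without the first untreated array this was -0.73 log2 and without the second it was -0.03 log2. Of the other type IX chains, Col9a2 differed by 0.14 log2 and Col9a3 by 0.07 log2 between PBS and uninjected OIR.

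The annotation gives Col9a1 alternative starts, which make a long and a short chain, and the array value does not tell them apart. The 150 bases before each start are shown for this reason (RefSeq, GRCm38.p6, plus strand, chr1:24177460-24177609 for the upstream start and chr1:24195053-24195202 for the downstream start). The capitals mark the CCAAT word, the only searched word found within 250 bases of either start.
Col9a1 upstream start: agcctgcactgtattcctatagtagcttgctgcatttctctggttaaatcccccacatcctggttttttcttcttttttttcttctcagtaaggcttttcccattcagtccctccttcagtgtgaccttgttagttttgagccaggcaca
Col9a1 downstream start: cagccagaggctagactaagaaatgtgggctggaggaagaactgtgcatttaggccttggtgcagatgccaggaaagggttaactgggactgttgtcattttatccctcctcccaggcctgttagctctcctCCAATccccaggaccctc
The cells that make vitreous collagens, the ciliary epithelium, were followed through 6 markers, of which Msx1 lay below the negative control medians on all arrays. The marker mean was 6.55 and 6.63 log2 with ISOX DUAL, 6.77 and 6.97 log2 with PBS, 6.99 and 6.89 log2 in uninjected OIR and 6.79 and 6.83 log2 in untreated day 17 retina. Optc, the gene of the vitreous protein opticin, was at 6.97 and 7.63 log2 with ISOX DUAL, 8.17 and 8.63 log2 with PBS, and 8.64 and 8.26 log2 in uninjected OIR. The part of these cells in the Col9a1 values was not tested.

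ISOX DUAL was compared with PBS, both injected into eyes with OIR, to see whether the inhibitor changed any collagen beyond the injection itself. Col4a1 was at 7.36 and 7.30 log2 with ISOX DUAL, against 7.45 and 7.25 log2 with PBS, and the values overlapped. The difference was -0.02 ± 0.21 log2 (95% interval -0.50 to 0.46). Col4a2 was at 7.15 and 7.16 log2 with ISOX DUAL, against 7.30 and 7.24 log2 with PBS, a difference of -0.12 ± 0.20 log2 (-0.58 to 0.35). Col2a1 was at 7.80 and 7.66 log2, against 7.83 and 7.78 log2 (-0.07, interval -0.56 to 0.41). The difference between OIR with PBS and untreated day 17 retina was 0.54 log2 for Col4a1, 0.48 log2 for Col4a2 and 0.54 log2 for Col2a1. The lower bounds reach these sizes for Col4a2 and Col2a1 and fall just short for Col4a1. Against uninjected OIR minus untreated retina (0.72, 0.61 and 0.50 log2) only the Col2a1 bound does. All these sizes have errors of their own, and a full return to the untreated level was not tested. The lower values of smallest p were those of Col9a1 (-0.28 ± 0.22 log2), Col18a1 (-0.22 ± 0.18 log2) and Col23a1 (-0.17 ± 0.16 log2), the last a transmembrane collagen. The higher ones were Col4a4 (0.09 ± 0.13 log2), Col12a1 (0.09 ± 0.16 log2) and Col17a1 (0.06 ± 0.11 log2), a hemidesmosome collagen.

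Of the 42 collagen genes 41 lay within 0.25 log2 of 0 between ISOX DUAL and PBS, the exception being Col9a1. The median was -0.01 log2, against 0.01 log2 over all genes. By limma 0 were called, where 0% of all genes were, and 0 had an unadjusted p under 0.05, where 1.02% of all genes did. The arrays did not overlap for 3 collagen genes with higher values (16.6% of all genes) and 5 with lower values (11.5% of all genes). The mean of the lens markers was 6.36 and 7.91 log2 with ISOX DUAL, against 6.04 and 6.35 log2 with PBS, so that the second ISOX DUAL array stood apart, and 0 of 8 were called. Of the 8 lens markers Lim2 lay below the negative control median on all arrays. The part of lens tissue in the collagen values was not tested.

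**Figure D4:**
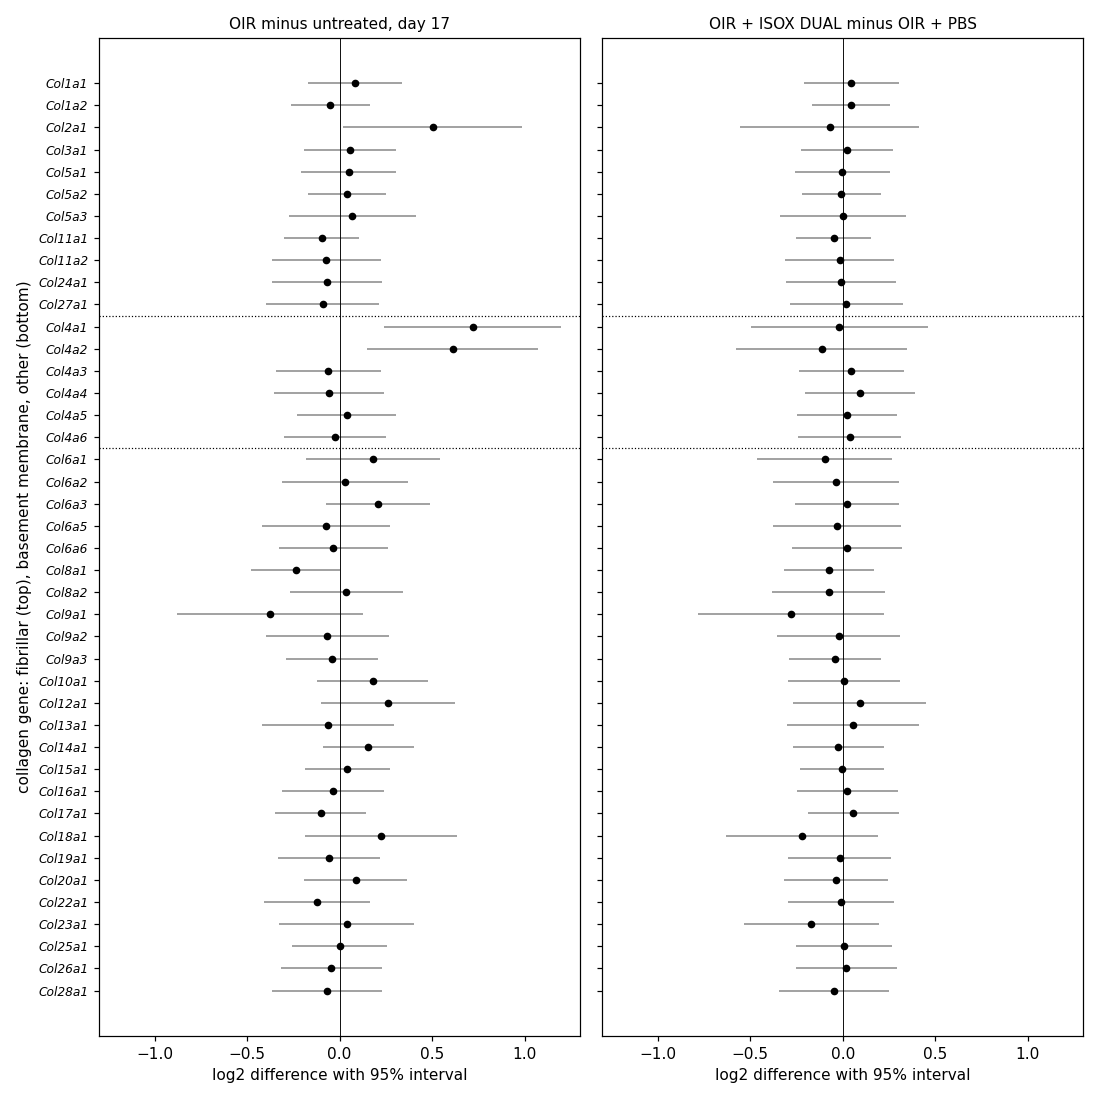
Log2 difference with its 95% interval (horizontal axis) for the 42 collagen genes (rows) in uninjected OIR minus untreated day 17 retina on the left, and in OIR with ISOX DUAL minus OIR with PBS on the right. The intervals of Col4a1, Col4a2 and Col2a1 lie above 0 on the left, and all 42 intervals on the right cross 0.

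Both injected groups were also set against uninjected OIR. The main type IV chains had lower means with either injection, by less than their error for Col4a1. With ISOX DUAL the Col4a1 difference was -0.19 ± 0.21 log2 and with PBS it was -0.18 ± 0.21 log2. For Col4a2 these were -0.24 ± 0.20 log2 and -0.13 ± 0.20 log2. With the second uninjected OIR array left out, the Col4a1 difference was 0.10 log2 with ISOX DUAL and 0.11 log2 with PBS. That of Col4a2 was then -0.04 log2 with ISOX DUAL and 0.08 log2 with PBS. Col12a1, a FACIT found with type I fibrils, was at 6.15 and 6.12 log2 with ISOX DUAL, 6.09 and 6.00 log2 with PBS, and 6.32 and 6.52 log2 in uninjected OIR. Both injected groups lay below uninjected OIR without overlap (-0.28 ± 0.16 log2 with ISOX DUAL and -0.37 ± 0.16 log2 with PBS), though neither difference passed (adjusted p = 0.991 and 0.966). By limma 0 of 42 collagen genes were called with ISOX DUAL (0.0043% of all genes) and 0 with PBS (0% of all genes). At an unadjusted p under 0.05 there were 1 with ISOX DUAL (Col9a1; 4.29% of all genes) and 2 with PBS (Col9a1 and Col12a1; 4.29% of all genes). Without overlap, 5 collagen genes lay above uninjected OIR with ISOX DUAL (25.7% of all genes) and 7 with PBS (20.9%), while 4 lay below it with ISOX DUAL (15.4%) and 2 with PBS (15.3%). Besides Col9a1, the higher means of smallest p were Col4a3 (0.17 ± 0.12 log2) and Col4a4 (0.12 ± 0.13 log2) with ISOX DUAL, and Col23a1 (0.24 ± 0.16 log2) and Col8a1 (0.13 ± 0.10 log2) with PBS. The FACIT gene Col14a1 had lower means with both (-0.12 log2 with ISOX DUAL and -0.10 log2 with PBS), at levels below the negative control medians.

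Against untreated day 17 retina, Col4a1 differed by 0.52 ± 0.21 log2 with ISOX DUAL, by 0.54 ± 0.21 log2 with PBS and by 0.72 ± 0.21 log2 in uninjected OIR. For Col4a2 these differences were 0.37 ± 0.20, 0.48 ± 0.20 and 0.61 ± 0.20 log2, and for Col2a1 they were 0.47 ± 0.21, 0.54 ± 0.21 and 0.50 ± 0.21 log2. The 3 comparisons share the untreated arrays. All 6 OIR arrays lay above both untreated day 17 arrays for each of the 3 genes. These genes had the smallest p of the higher collagens in these same comparisons, so their separation is no separate support. Col6a3 and Col10a1 were separated in the same way. Col6a3 was at 5.88 to 6.11 log2 on the OIR arrays, against 5.72 and 5.86 log2. Col10a1 was at 4.79 to 4.86 log2, against 4.71 and 4.58 log2, below the negative control medians. The share of all genes separated in this way was not counted. By limma 0 of 42 collagen genes were called with ISOX DUAL (0.0172% of all genes) and 0 with PBS (0% of all genes). At an unadjusted p under 0.05 there were 1 with ISOX DUAL (8.46% of all genes) and 3 with PBS (9.14% of all genes). Of the collagen genes, 1 with ISOX DUAL (Col11a1; 27.6% of all genes) and 2 with PBS (Col11a1 and Col1a2; 28.7% of all genes) lay below the untreated arrays without overlap. The counts above them without overlap were 9 with ISOX DUAL (20.6% of all genes) and 11 with PBS (19.7% of all genes). Col11a1 differed by -0.17 ± 0.09 log2 with ISOX DUAL and by -0.13 ± 0.09 log2 with PBS, and Col8a1 by -0.18 and -0.11 log2. Next by p came Col22a1 with ISOX DUAL (-0.03 log2) and Col12a1 with PBS (-0.11 log2). Col6a1, a chain of the beaded filaments around cells, was at 7.42 and 7.39 log2 with ISOX DUAL, 7.51 and 7.50 log2 with PBS, 7.33 and 7.44 log2 in uninjected OIR, and 7.03 and 7.38 log2 in untreated retina. Its untreated arrays spread more widely than those of any OIR group.

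Untreated day 17 retina was compared with day 7 retina to see how collagen transcripts change as the retina matures. Col12a1 rose, the 1 collagen gene to pass the threshold in any of the 7 comparisons. It was at 6.27 and 6.04 log2 at day 17, against 5.58 and 5.16 log2 at day 7, without overlap. The difference was 0.79 ± 0.16 log2 (95% interval 0.43 to 1.15, limma adjusted p = 0.0173). The day 7 values lay below the negative control medians of their arrays (5.99 and 6.05), so that the size is not exact. The call was lost without the first day 17 array (0.67 log2, adjusted p = 0.0910), without the second day 7 array (0.57 log2, adjusted p = 0.0642), and with only these 4 arrays in the fit (adjusted p = 0.162). This 1 of 42 is 2.38% of the collagen genes, against 10.6% of all genes tested, and 5.26% of all genes were called as higher. At an unadjusted p under 0.05 there were 6, or 14.3%, against 22.8% of all genes, and the arrays did not overlap for 9 with higher values (20.7% of all genes) and 2 with lower values (19.7%).

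Of the further collagens, Col8a1 and Col20a1 came nearest to the threshold. Col8a1 was at 5.86 and 5.63 log2 at day 17, against 5.34 and 5.37 log2 at day 7 (0.39 ± 0.10 log2, adjusted p = 0.0525), with all but 1 of these values below the negative control medians. Col20a1, a FACIT family member, was at 6.96 and 7.15 log2 at day 17, against 6.51 and 6.77 log2 at day 7 (0.41 ± 0.12 log2, adjusted p = 0.0722). Col2a1 ran the other way, at 7.13 and 7.39 log2 at day 17, against 7.52 and 8.12 log2 at day 7 (-0.56 ± 0.21 log2, adjusted p = 0.154). Its groups did not overlap, and it passed without the first day 7 array (-0.86 log2, adjusted p = 0.0350). Col9a1 was 0.62 ± 0.22 log2 higher at day 17 (adjusted p = 0.127), and passed at 0.97 log2 without the first day 17 array (adjusted p = 0.0167). Without the second it was 0.27 log2. Col17a1 differed by -0.20 log2 (adjusted p = 0.338), and the growth plate collagen gene Col10a1 by -0.24 log2, with values below the negative controls. Col4a1 (0.11 log2) and Col4a2 (0.10 log2) had nearly the same level at both ages, with overlapping arrays, while the endothelial marker mean was 7.15 and 7.08 log2 at day 17, against 6.78 and 6.71 log2 at day 7. Of the 42 collagen genes 33 had a higher mean at day 17 (52.0% of all genes) with a median of 0.08 log2, or -0.08 log2 without the first and 0.24 log2 without the second day 7 array.

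Genes that make, process and bind collagen were looked at beside the chains, through 30 synthesis and crosslinking genes (26 tested) and 10 receptors (9 tested). Between uninjected OIR and untreated day 17 retina 2 synthesis genes and 1 receptor gene were called, where 0.495% of all genes tested were. All of them were higher in OIR. Pcolce, whose product speeds the removal of the C-terminal propeptide from fibrillar procollagens, was at 8.01 and 7.84 log2 in uninjected OIR, against 6.38 and 6.59 log2 in untreated retina (1.44 ± 0.13 log2, limma adjusted p = 0.00940). Bmp1, the protease that removes that propeptide, was at 7.71 and 7.57 log2, against 6.88 and 7.02 log2 (0.69 ± 0.09 log2, adjusted p = 0.0318). Itgb1, the beta subunit of the collagen-binding integrins, was at 9.18 and 8.99 log2, against 8.30 and 8.31 log2 (0.78 ± 0.10 log2, adjusted p = 0.0241). Each of these lies apart from its untreated arrays by more than the spread within groups. The calls rest on few arrays, however. The Pcolce call was lost without the first OIR array (adjusted p = 0.0715) and without the first or the second untreated day 17 array (0.0891 and 0.0656). Bmp1 lost its call without any 1 of the 10 arrays (adjusted p of 0.0514 to 0.224), and Itgb1 without any array but those of day 7 (0.0547 to 0.167). With only these 4 arrays in the fit 0 of the 3 passed (adjusted p of 0.270 for Pcolce, 0.534 for Bmp1 and 0.426 for Itgb1), and array weights ended the calls of Bmp1 (0.117) and Itgb1 (0.0995).

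The prolyl and lysyl hydroxylase genes P4ha2 (0.76 ± 0.13 log2, adjusted p = 0.0776) and Plod2 (0.93 ± 0.18 log2, adjusted p = 0.0991), whose enzymes modify the chains before they fold, and Pxdn (0.77 ± 0.15 log2, adjusted p = 0.107), whose product crosslinks type IV collagen, did not pass, and are named after their values were seen. Over 21 settings P4ha2 was called in 2, Plod2 in 2 and Pxdn in 1. A fit that paired arrays by replicate number, with the numbers of the injected groups crossed, called P4ha2, Plod2 and Pxdn. That setting was chosen after the data were seen. Between uninjected OIR and untreated day 17 retina the 26 synthesis genes had a median of 0.17 log2, with 18 positive. The 9 receptor genes had a median of 0.40 log2, with 6 positive. Over all genes the median was -0.04 log2, and 40.0% were positive. Some synthesis genes ran the other way. Pcolce2 was at 6.41 and 6.29 log2 in uninjected OIR, against 6.83 and 6.82 log2 in untreated retina. Tll1 was at 6.18 and 6.32 log2, against 6.68 and 6.54 log2. Between ISOX DUAL and PBS 0 genes of either list were called, where 0% of all genes tested were. Pcolce was at 7.70 and 7.69 log2 with ISOX DUAL, against 7.27 and 7.08 log2 with PBS (0.52 ± 0.13 log2, adjusted p = 1.00). At day 17 relative to day 7, 3 of the 26 synthesis genes were called as higher and 1 as lower. Of the 9 receptor genes 2 were called as lower, where 10.6% of all genes tested were called in either direction. Adamts3, a protease known to trim type II procollagen, rose by 1.20 ± 0.17 log2 (adjusted p = 0.00474). Pcolce2 rose by 1.07 ± 0.12 log2 (0.00173) and the tolloid protease gene Tll1 rose by 0.90 ± 0.10 log2 (0.00169). Pxdn differed by -1.28 ± 0.15 log2 (adjusted p = 0.00206), the collagen receptor gene Itga2 by -1.51 ± 0.14 log2 (0.000767) and Itgb1 by -0.51 ± 0.10 log2 (0.0147), so that these 3 fell. The Itgb1 call was lost without the first day 17 array (adjusted p = 0.0571) and without the second day 7 array (0.0622), and with array weights (0.0856). With only the 4 untreated arrays in the fit Adamts3 (0.0839), Pcolce2 (0.0550), Tll1 (0.0634) and Itgb1 (0.197) did not pass.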

How the data were processed

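The authors deposited log2 values, 1 for each array and transcript cluster. How they corrected background and normalized, and with which software, is not given in the sources used here. The log2 scale was read from the values, which were not normalized again. Per the labels' protocols, Trizol RNA was fragmented enzymatically and labelled with biotin. After 6732 control rows were set aside, 65956 clusters remained, 30604 of them with 1 symbol, updated through RefSeq genes of GRCm38.p6. A gene was represented by its cluster of highest mean. It was tested if at least 2 arrays exceeded that array's 30th percentile. Groups were compared with limma 3.58.1 under R 4.3.3, in 1 fit of all 10 arrays with eBayes and 5 residual degrees of freedom. The Benjamini-Hochberg adjustment ran over 23255 genes, and genes with an adjusted p under 0.05 were called. On simulated data 83% of 100 genes changed by 1 log2 were called for uninjected OIR minus untreated day 17 retina. For ISOX DUAL minus PBS it was 86% of 100. Each run also changed a further 100 genes by 2 log2, and 10 and 15 unchanged genes were called falsely. The simulated spread was independent between genes, unlike the shared shifts between arrays seen here. Changes under 1 log2, such as those of the collagen genes in OIR (at most 0.72 log2), were not simulated. With 2 arrays a group the median SE was 0.13 log2, which bounds the precision.

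Genes described in full are those past the threshold, the 3 of smallest p per comparison and direction, and a fixed set of chains that define each class. The members, lists and markers were chosen with earlier results of these data known. Other settings were another normalization, 2 other filters, protein-coding genes only, the mean of a gene's clusters, an intensity trend, array weights, the replicate number as a block, only the groups compared, and each array left out in turn. Protein sequences were not used here.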

Additional observations from a re-analysis of the deposited data

How the results depend on the processing

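In 6 of the 7 comparisons the count of collagen genes called was 0 under all 20 other settings. Between day 17 and day 7 the count was 1. It was 0 with only the groups compared, 3 over protein-coding genes only (Col12a1, Col20a1 and Col8a1), 2 with an intensity trend (Col12a1 and Col8a1), 0 to 2 without 1 array, and 1 with the replicate number as a block, which also called Plod2 in uninjected OIR against untreated day 17 retina (adjusted p = 0.0126). With 1 array of a group left out, the remaining one is assumed to vary like the other groups. The replicate number is not known to pair the arrays: differences between first and second arrays correlated across genes at 0.583 to 0.809 among uninjected groups and at -0.0567 to -0.406 between uninjected and injected ones. With the numbers of the injected groups crossed, chosen after the data were seen, 4 collagen genes were called between the days and 0 elsewhere. In uninjected OIR against untreated day 17 retina, 6 synthesis genes (Bmp1, P4ha2, Pcolce, Plod1, Plod2 and Pxdn) rather than 2 were then called. Over all 23255 genes this setting called 3539 between the days and 215 in uninjected OIR against untreated day 17 retina. The fit of protein-coding genes only called 1257 of 15746 genes as higher and 1324 as lower between the days. Of 892 values under other settings for the 45 collagen differences that the naming rule gave, 877 kept the sign and the side of the threshold. These do not include Col9a1 between the days, nor the synthesis and receptor genes: of 21 settings, Pcolce was called in OIR in 17, Itgb1 in 11 and Bmp1 in 9. Of the 45, 4 changed sign. Col3a1 in OIR was -0.0030 log2 without the second OIR array. Col4a1 with PBS against OIR was -0.47 log2 without the first OIR array and 0.11 log2 without the second. Col8a1 with PBS against untreated retina was 0.0084 log2 without the first untreated array and -0.22 log2 without the second. Col22a1 with ISOX DUAL against untreated retina was -0.072 log2 without the first untreated array and 0.0028 log2 without the second. Other collagen differences outside the 45 also crossed 0 over the settings. Among them were Col4a1 for ISOX DUAL minus PBS (-0.12 to 0.081 log2), ISOX DUAL minus uninjected OIR (-0.48 to 0.096 log2) and day 17 minus day 7 (-0.063 to 0.28 log2). Col4a2 did so for PBS minus uninjected OIR (-0.33 to 0.078 log2) and day 17 minus day 7 (-0.11 to 0.32 log2). Over all genes the count of 115 for OIR was 0 to 215 and that of 2454 between the days 345 to 3539. The 6 collagen genes below the negative control medians on all arrays could change without being seen.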
